A study of Mus musculus with 10 samples.

Results

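Immediate early response genes are transcribed within minutes of a stimulus, from factors already present in the cell and without new protein synthesis. A group of 10 of them, named by gene symbol, was followed here: the AP-1 genes Fos, Fosb, Fosl2, Jun and Junb, the zinc finger genes Egr1 and Egr2, the nuclear receptor gene Nr4a1, Ier2, and Dusp1, which codes for a phosphatase that switches MAP kinases off. They are 10 of the 24470 gene entries in the count table. Testes came from C57BL/6 mouse embryos at E12.5, a stage counted in days after mating. Each of 5 mice gave 2 gonads: 1 spent 48 h in culture with 75 µM GPI, an inhibitor of the glycogen phosphorylases that release glucose units from glycogen, and the other was given the vehicle, DMSO. GPI reaches every cell type of the gonad, and the RNA came from whole gonads, cultured with the mesonephros and then dissected from it, so that a lower level can mean fewer cells of a type or less RNA per cell, which cannot be told apart. The comparison asks what the cultured testis transcribes differently when glycogen breakdown is blocked.

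Early genes are the nuclear end of several signaling chains. Growth factors act through the kinase ERK on ternary complex factors bound with SRF at the CArG box, and cyclic AMP and calcium act through CREB. FOS and JUN proteins pair into AP-1, EGR proteins bind GC-rich elements, and DUSP1, NAB and Sprouty proteins close the loop by restraining the kinases or the factors. Their transcripts are short-lived. They also respond to dissection and handling of tissue. A culture sampled days after treatment began is past their first response to its start. The authors renewed part of the medium, with inhibitor or vehicle, during the culture. Whether the levels here also hold a response to that renewal or to later handling was not tested. In the gonad, AP-1, EGR and NR4A factors are known for their part in steroidogenic cells, which answer to cyclic AMP.

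Promoters of 4 members are shown because the results turn on them: Fosl2 and Dusp1 were called in opposite directions, the Nr4a1 values of the groups did not overlap, and Egr2 had the estimate farthest from 0. Each line is the 250 bases before the transcription start, 5′ to 3′, from RefSeq on GRCm38.p6, in a promoter table in which 8 of the 10 members were matched. Capitals mark, on either strand, TGACG (the first 5 letters of the cyclic AMP element TGACGTCA, a palindrome that holds it 2 times), the AP-1 element TGANTCA, the EGR element GCGNGGGCG, the CArG box and TATAAA. The Fosl2 window is chr5:32136222-32136471 (plus strand), that of Egr2 chr10:67537619-67537868 (plus), that of Nr4a1 chr15:101266596-101266845 (plus) and that of Dusp1 chr17:26508473-26508722 (minus).
Fosl2: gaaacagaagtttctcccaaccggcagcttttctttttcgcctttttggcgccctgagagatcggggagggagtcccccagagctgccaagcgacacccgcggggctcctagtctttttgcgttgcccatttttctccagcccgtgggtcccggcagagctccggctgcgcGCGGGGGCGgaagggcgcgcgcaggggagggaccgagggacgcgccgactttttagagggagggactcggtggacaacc
Egr2: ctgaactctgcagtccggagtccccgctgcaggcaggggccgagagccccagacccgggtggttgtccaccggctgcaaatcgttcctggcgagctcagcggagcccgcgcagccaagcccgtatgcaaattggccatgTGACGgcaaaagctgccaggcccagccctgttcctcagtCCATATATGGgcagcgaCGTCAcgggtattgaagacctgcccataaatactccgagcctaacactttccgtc
Nr4a1: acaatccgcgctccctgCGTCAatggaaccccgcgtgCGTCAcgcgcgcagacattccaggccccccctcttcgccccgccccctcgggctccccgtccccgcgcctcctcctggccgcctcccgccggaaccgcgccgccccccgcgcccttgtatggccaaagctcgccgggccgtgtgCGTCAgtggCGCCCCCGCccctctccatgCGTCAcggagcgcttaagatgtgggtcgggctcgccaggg
Dusp1: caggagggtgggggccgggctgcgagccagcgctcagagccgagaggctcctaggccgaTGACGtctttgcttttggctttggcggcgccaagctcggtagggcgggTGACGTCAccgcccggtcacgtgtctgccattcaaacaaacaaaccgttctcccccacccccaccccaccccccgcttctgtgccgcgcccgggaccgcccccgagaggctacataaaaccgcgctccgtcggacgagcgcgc
In the Dusp1 window, TGACGTCA lies 143 to 136 bases before the start and a further TGACG 191 to 187 bases before it. The Nr4a1 window holds TGACG 4 times, and 1 GCGNGGGCG. The Egr2 window holds TGACG 2 times and a CArG box 72 to 63 bases before the start. The Fosl2 window holds no TGACG, and its 1 match is GCGNGGGCG. Among the 8 members with a window used, 6 hold TGACG, against 17.8% of 32841 promoter windows of 250 bases. TGACGTCA is held by 1 of the 8, against 1.55%. The CArG box was found in 1 member and in 1.47% of all windows, GCGNGGGCG in 3 members and in 4.7%, TATAAA in 1 member and in 12.4%, and TGANTCA in 0 members and in 6.75%. The windows of these 8 members had 58.4 to 74.4% GC, against a median of 52.4% over all promoters. The shares of windows with a match were not adjusted for this difference. These matches describe letters in a window, and binding was not measured.

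The vehicle libraries of M1 to M5 held 11114376, 10203679, 10835341, 12220168 and 15590223 counts, and the GPI libraries 11025409, 15635322, 13639929, 11691690 and 11468668. Coordinates below are those of mm10. Normalized counts are counts divided by the TMM-scaled library size, relative to its mean over the 10 libraries. The tissue label was checked against markers of the fetal testis. The Sertoli cell genes Sox9 (1231 ± 213.5 normalized counts with vehicle, SD, n = 5), Amh (127.6 ± 52.4) and Dmrt1 (131.9 ± 28.9) and the Leydig cell gene Cyp11a1 (904.8 ± 599) were present. Markers of the mesonephric ducts were low, with 10.1 ± 11.6 normalized counts for Pax2 and 6.35 ± 5.62 for Lhx1 with vehicle.

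A pair of libraries stood apart in these genes. The GPI gonad of mouse M1 had the highest value of the 5 GPI libraries in 9 of the 10 members, while it was the highest in 24.7% of all 13941 genes tested. The vehicle gonad of mouse M2 was the highest of the 5 vehicle libraries in 5 of the 10 members and in 27.8% of all tested genes. The GPI gonad of M1 also stood apart in the glycolytic genes Pgk1, at 1627.3 normalized counts against 241.5 to 435.4 in the other GPI gonads, and Gapdh, at 7614.1 against 2523.6 to 3378.3. Whether this bears on the early genes was not tested.

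The low-count filter kept all 10 members, which were tested with the quasi-likelihood test of edgeR, with the mouse as a block and Benjamini-Hochberg adjustment across the 13941 genes tested. At an FDR of 0.05, 1 member was called higher with GPI, Fosl2, where 11.1% of all tested genes were, and 1 was called lower, Dusp1, where 11.9% were. Together 2 of 10 were called against 22.9% of all tested genes, a share near the background. Their median log2 fold change was -0.21, against 0.02 over all tested genes, with 4 estimates above 0 and 6 below. At an unadjusted p under 0.05 there were 6 members, 2 with higher and 4 with lower estimates, against 34.0% of all tested genes. Vehicle and GPI values did not overlap in 2 of 10 members, Dusp1 and Nr4a1, against 16.1% of all tested genes, and the same 2 had ratios of 1 sign in 5 of 5 mice, against 30.5%. With mouse M1 left out, the members' median was -0.33, against 0.00 over all tested genes, and 8 of 10 estimates lay below 0. The log2 fold changes were then -0.55 for Fos, -0.09 for Fosb, 0.31 for Fosl2, -0.12 for Jun, -1.54 for Junb, -0.62 for Egr1, -1.61 for Egr2, 0.46 for Nr4a1, -0.02 for Ier2 and -1.42 for Dusp1. With mouse M2 left out instead, the members' median was -0.10, against 0.02 over all tested genes, and 6 of 10 estimates lay below 0. They were -0.12 for Fos, 0.68 for Fosb, 0.37 for Fosl2, -0.07 for Jun, -0.85 for Junb, -0.17 for Egr1, -0.98 for Egr2, 0.54 for Nr4a1, 0.03 for Ier2 and -1.08 for Dusp1.

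**Figure D1:**
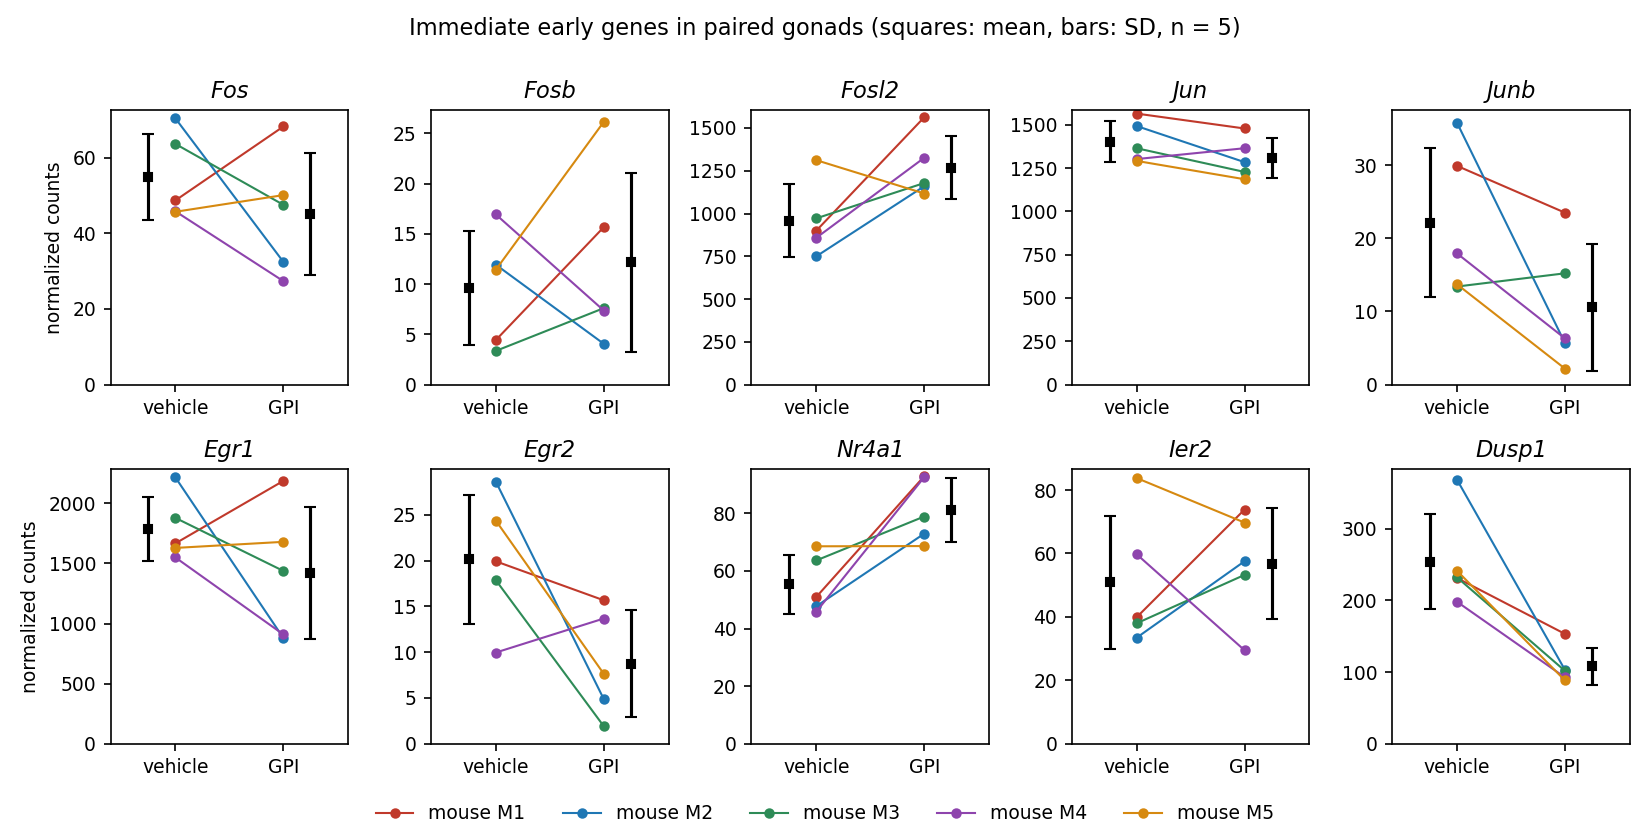
Normalized counts of the 10 genes (vertical axes, each from 0) in the vehicle and GPI gonads of 5 mice, with lines joining the gonads of 1 mouse, squares for the group mean and bars for the SD. In Dusp1 every GPI gonad lies below every vehicle gonad, at 88.3 to 153.3 against 198.2 to 368.7.

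Fos codes for the prototype of the FOS proteins, which need a partner to bind DNA. Its entry (Entrez Gene 14281) spans chromosome 12 from 85473901 to 85477269. With vehicle, Fos had 48.7, 70.4, 63.6, 45.8 and 45.7 normalized counts in mice M1 to M5. With GPI the values were 68.3, 32.4, 47.5, 27.4 and 50.1. The groups overlapped, and the GPI gonad was higher in M1 and M5 and lower in the other mice. Fos had a log2 fold change of -0.32 (95% interval -0.92 to 0.28, adjusted p = 0.464, edgeR's quasi-likelihood test, Benjamini-Hochberg adjustment), and a p that misses the threshold does not show that there is no difference. The estimate for Fos was -0.55 without M1 (adjusted p = 0.233) and -0.12 without M2 (adjusted p = 0.82, both from edgeR).

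Fosl2 codes for FRA2, a FOS protein whose transcript is made later and lasts longer than that of Fos. Its entry (Entrez Gene 14284) spans chromosome 5 from 32136472 to 32157840. With vehicle it had 899.1, 749.4, 971.5, 857.6 and 1311.9 normalized counts in M1 to M5. With GPI it had 1562.4, 1159.3, 1178.1, 1325.6 and 1116.9. The GPI gonad was higher in 4 of 5 mice, and the groups overlapped through the vehicle gonad of M5, which lay above 3 GPI gonads. The mean was 957.9 ± 213.6 with vehicle and 1268.5 ± 182.2 with GPI (SD, n = 5), or 0.42 on the log2 scale (standard error 0.12, adjusted p = 0.0263, edgeR's quasi-likelihood test, Benjamini-Hochberg adjustment). Fosl2 therefore rose, though the call depended on single mice: the adjusted p from edgeR was 0.102 without M1, 0.0955 without M2, 0.0646 without M3, 0.11 without M4 and 0.00141 without M5, with a positive estimate in each case. With scaling to total counts it was 0.0572.

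Fosb (Entrez Gene 14282, chromosome 7 from 19302696 to 19310045) codes for another FOS protein and was the member with the fewest counts. Its normalized counts were 3.35 to 16.9 in vehicle gonads and 4.05 to 26.2 in GPI gonads. Its log2 fold change of 0.28 had a 95% interval from -0.95 to 1.502 (adjusted p = 0.787 by edgeR with Benjamini-Hochberg adjustment). The estimate for Fosb was -0.09 without M1 and 0.68 without M2.

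Jun codes for the partner that most FOS proteins bind and that can also pair with itself. Its single exon (Entrez Gene 16476) lies on chromosome 4 from 95049036 to 95052222. Vehicle gonads had 1564.6, 1492.8, 1364.6, 1301.9 and 1291.4 normalized counts in M1 to M5. GPI gonads had 1478.5, 1284.2, 1227.6, 1364.6 and 1185.5. The groups overlapped in most of their range, and the GPI gonad was lower in 4 of 5 mice. On the log2 scale Jun differed by -0.10, with the narrowest interval of the members, -0.26 to 0.06 (adjusted p = 0.371, edgeR with Benjamini-Hochberg adjustment). Junb (Entrez Gene 16477, chromosome 8 from 84976909 to 84978748) codes for a JUN protein that activates more weakly and restrains JUN at many elements. Vehicle gonads had 13.4 to 35.8 normalized counts of Junb and GPI gonads 2.18 to 23.5. GPI gonads were lower in 4 of 5 mice, and M3 went the other way. The log2 fold change of Junb was -1.22 (95% interval -2.29 to -0.15), and its adjusted p of 0.0976 from edgeR with Benjamini-Hochberg adjustment missed the threshold, with 4 of its 5 ratios below 0.

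EGR1 is a zinc finger activator that SRF and ternary complex factors switch on. With vehicle, Egr1 (Entrez Gene 13653, chromosome 18 from 34861207 to 34864956) had 1667.6, 2215.9, 1879.3, 1549.9 and 1629.6 normalized counts in M1 to M5. With GPI it had 2188.1, 878.8, 1437.7, 909.0 and 1680.2. The GPI gonads of M2, M3 and M4 lay below all vehicle gonads, those of M1 and M5 were above their own vehicle gonads, and the groups overlapped. The SD was 268.2 with vehicle and 550.4 with GPI. The log2 fold change was -0.41 (standard error 0.18, 95% interval -0.80 to -0.01, adjusted p = 0.135, edgeR's quasi-likelihood test, Benjamini-Hochberg adjustment). Leaving out a mouse moved Egr1 both ways in edgeR: without M1 it was called lower, at -0.62 (adjusted p = 0.0108), and without M2 it had -0.17 (adjusted p = 0.473). It was also called lower without the low-count filter, at -0.41 (adjusted p = 0.0272 from edgeR).

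EGR2 is the related factor best known from nerve myelination. With vehicle, Egr2 (Entrez Gene 13654, chromosome 10 from 67537869 to 67542188) had 19.9, 28.6, 17.9, 9.96 and 24.4 normalized counts in M1 to M5. With GPI it had 15.7, 4.86, 1.90, 13.7 and 7.63. Values were lower with GPI in 4 of 5 mice, and the groups overlapped through M1 and M4. Its estimate of -1.30 on the log2 scale had a 95% interval from -2.45 to -0.15 and an adjusted p of 0.0994 (edgeR with Benjamini-Hochberg adjustment). Without M4 the adjusted p of Egr2 was 0.0496, just past the threshold, and over its alternatives it reached 0.272.

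NR4A1, also called NUR77, is an orphan nuclear receptor that cyclic AMP induces in steroidogenic cells, where it acts on promoters of steroid enzymes. Nr4a1 (Entrez Gene 15370) lies on chromosome 15 from 101266846 to 101274795. Vehicle gonads had 50.9, 47.7, 63.6, 45.8 and 68.6 normalized counts in M1 to M5. GPI gonads had 92.9, 73.0, 78.9, 92.6 and 68.7. Each GPI gonad was above its vehicle gonad, and the groups did not overlap, though by a margin of 68.65 against 68.57 in the gonads of M5. The mean was 55.3 ± 10.2 with vehicle and 81.2 ± 11.2 with GPI (SD, n = 5). The log2 fold change of Nr4a1 was 0.55 (standard error 0.22, 95% interval 0.09 to 1.02), and its adjusted p of 0.0847 from edgeR with Benjamini-Hochberg adjustment missed the threshold. Under 12 alternatives it stayed positive, and its adjusted p ran from 0.0509 to 0.27.

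Ier2 (Entrez Gene 15936, chromosome 8 from 84661331 to 84662852) codes for a small early response protein of the nucleus. Vehicle gonads had 33.4 to 83.8 normalized counts and GPI gonads 29.5 to 73.9. The GPI gonad was higher in M1, M2 and M3 and lower in M4 and M5. Ier2 had an estimate of 0.17 on the log2 scale (95% interval -0.46 to 0.81, adjusted p = 0.736 by edgeR with Benjamini-Hochberg adjustment), and it was -0.02 without M1.

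DUSP1, or MKP1, removes phosphate from p38, JNK and ERK in the nucleus and is induced by the signals it ends. The entry of Dusp1 (Entrez Gene 19252) spans chromosome 17 from 26505591 to 26508472, and its promoter window, shown above, holds the whole TGACGTCA. With vehicle, Dusp1 had 231.4, 368.7, 232.3, 198.2 and 241.5 normalized counts in M1 to M5. With GPI it had 153.3, 103.0, 101.7, 92.6 and 88.3. Every GPI gonad was below every vehicle gonad, with the vehicle gonad of M2 and the GPI gonad of M1 as the highest of their groups. The mean fell from 254.4 ± 66.0 to 107.8 ± 26.2 (SD, n = 5), which is 42.4% of vehicle or -1.24 on the log2 scale (standard error 0.17, adjusted p = 0.000131, edgeR's quasi-likelihood test, Benjamini-Hochberg adjustment). Dusp1 was called lower under each of 12 alternative settings, with an adjusted p of at most 0.00115.

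**Figure D2:**
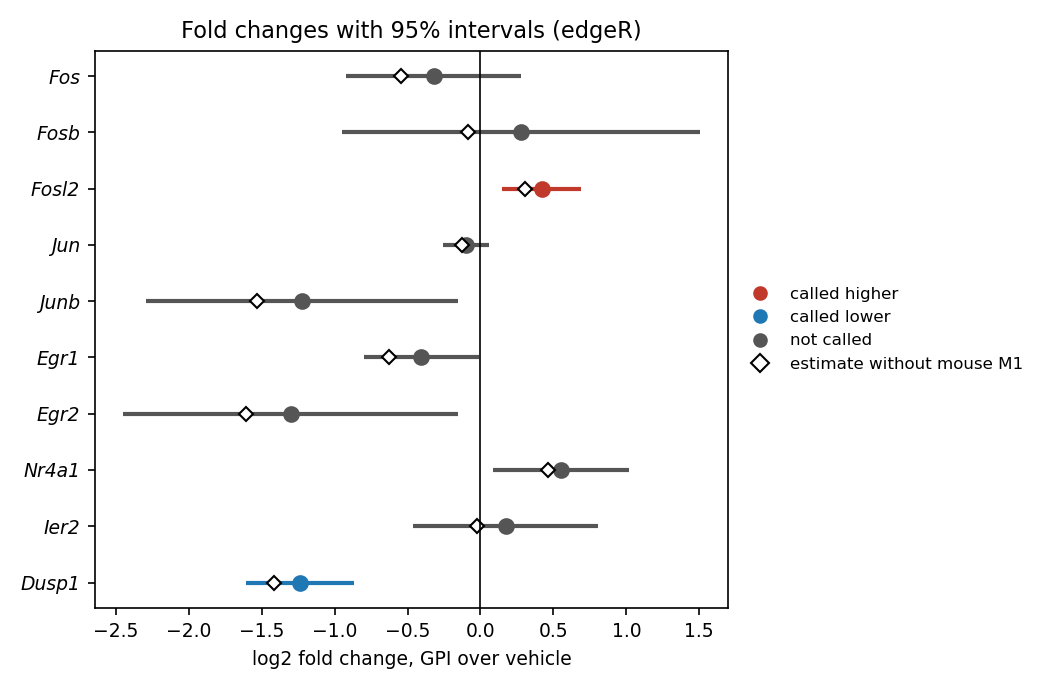
Log2 fold change of GPI over vehicle (horizontal axis) for each gene, from edgeR, with 95% intervals as lines and the estimate without mouse M1 as open diamonds. Fosl2 (0.42) is called higher and Dusp1 (-1.24) lower, and without M1 each of the 10 estimates lies farther to the left.

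Per length, the vehicle gonads held these transcripts at very different levels. On the FPKM scale (counts per kilobase of the longest coding transcript, scaled to library size), mean levels with vehicle were 35.7 for Jun, 32.4 for Egr1, 11.9 for Fosl2, 10.4 for Dusp1, 2.72 for Ier2, 2.11 for Fos, 1.76 for Nr4a1, 0.99 for Junb, 0.55 for Egr2 and 0.21 for Fosb. Ranges over the 5 vehicle gonads overlapped between neighbours in this order, except between Egr1 and Fosl2 and between Dusp1 and Ier2. The level of Jun was above that of 89.2% of tested genes, and the level of Fosb above that of 0.925%. With GPI, mean FPKM was 33.3 for Jun, 25.7 for Egr1, 15.8 for Fosl2 and 4.40 for Dusp1. The summed normalized counts of the 10 genes were 4556.6, 5054.7, 4647.5, 4103.9 and 4722.1 with vehicle and 5672.2, 3602.8, 4149.6, 3868.6 and 4295.3 with GPI in M1 to M5. By normalized counts Egr1 had the highest mean of the 10 genes in each group, 1788.5 with vehicle and 1418.8 with GPI. In the GPI gonads of M2 and M4, Jun and Fosl2 lay above Egr1. Without Egr1, Jun and Fosl2, the sums of the other 7 genes were 394.4 to 596.6 with vehicle and 269.3 to 443.2 with GPI. These sums include Dusp1, whose mean was 254.4 with vehicle and 107.8 with GPI. Of the remaining genes in them, Nr4a1, Ier2 and Fosb had higher means with GPI, and Fos, Junb and Egr2 lower means.

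Ratios were also taken within each mouse. In M1, 6 members were higher and 4 lower in the GPI gonad, with a median log2 ratio of 0.43. In M2, 3 were higher and 7 lower, with a median of -1.14. The medians were 0.00 in M3, -0.74 in M4 and -0.18 in M5, while the median over all tested genes was between 0.01 and 0.02 in each mouse. Fos and Egr1 had the same sign in each mouse, positive in M1 and M5 and negative in M2, M3 and M4. Centred on each gene's mean over the 10 libraries, the mean profile of the members lay between 0.00 and 0.35 in the vehicle gonads, at 0.43 in the GPI gonad of M1, and between -0.46 and -0.14 in the other GPI gonads.

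**Figure D3:**
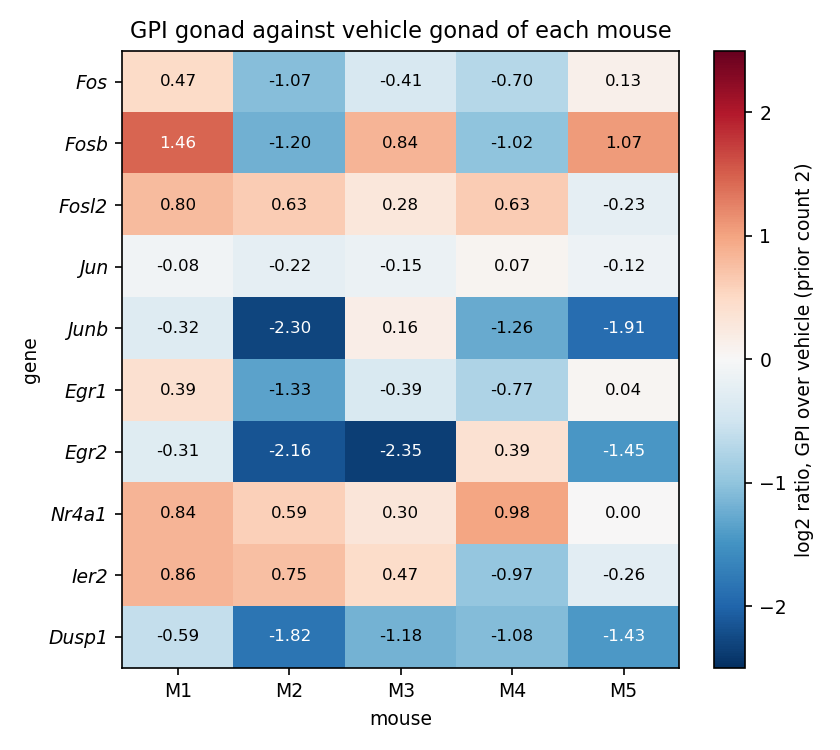
Log2 ratio of the GPI over the vehicle gonad of each mouse (columns, prior count 2) for the 10 genes (rows), with red above 0 and blue below. Dusp1 is below 0 in 5 of 5 mice and Nr4a1 above 0 in 5 of 5, at 0.00 in M5, while the M2 column holds a ratio of -1.07 for Fos, -1.33 for Egr1 and -2.30 for Junb.

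Other genes of the same families are given list by list. Of 10 further AP-1 and MAF genes, 7 were tested, 2 were called higher and 1 lower, with a median log2 fold change of 0.11, beside 11.1% called higher, 11.9% called lower and a median of 0.02 over all tested genes. JDP2, a repressor that binds AP-1 and cyclic AMP elements, rose from 47.9 ± 13.8 to 121.3 ± 17.9 normalized counts (SD, n = 5), a log2 fold change of 1.36 for Jdp2 (adjusted p = 0.000197, edgeR with Benjamini-Hochberg adjustment). The small MAF genes went both ways, with -1.44 for Maff and 0.52 for Mafk, and Mafk was no longer called without M3 (adjusted p = 0.0509 from edgeR). Jund, which codes for the JUN protein that is made at rest, had -0.01 (adjusted p = 0.985, edgeR), Fosl1 had 0.447 ± 0.999 normalized counts with vehicle and 0 with GPI, and Batf2 was at 0 in each library.

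Among 11 other early zinc finger genes and EGR corepressors, 10 were tested, 0 were called higher and 7 lower, with a median log2 fold change of -0.48, against 11.1%, 11.9% and 0.02 over all tested genes. Egr3, the closest relative of Egr2, fell from 72.5 ± 28.9 to 10.5 ± 8.32 normalized counts (SD, n = 5), or -2.90 on the log2 scale (standard error 0.39, adjusted p = 1.00e-04, edgeR with Benjamini-Hochberg adjustment). Klf10, an early target of TGF-β, fell by 1.63 on the log2 scale, and Zfp36l1, which codes for a protein that marks AU-rich transcripts for decay, fell by 0.51. Both were lower in 5 of 5 mice. Egr4 was at 0 in each library. Of the other NR4A receptors, Nr4a2 rose by 0.77 (adjusted p = 0.0112, edgeR with Benjamini-Hochberg adjustment), a call lost without M4 (adjusted p = 0.056), and Nr4a3 had -0.32 (adjusted p = 0.571).

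A wider list of 36 other early genes had 35 tested, 4 called higher (11.1% of all tested genes) and 11 lower (11.9% of all tested genes), with a median of -0.20. The stress-linked kinase gene Plk2 fell by 1.60, the Notch and growth factor target Hes1 by 0.99, Trib1 by 0.90 and the survival gene Ier3 by 1.27, each on the log2 scale and in 5 of 5 mice. Ier5 had -0.26 (adjusted p = 0.399, edgeR with Benjamini-Hochberg adjustment) and was called lower without M2, at -0.54 (adjusted p = 0.00518).

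Enzymes and inhibitors that act against MAP kinases come next, listed together with ETV genes, which are not such inhibitors. Of 9 other DUSP genes, 0 were called higher and 3 lower, with 3 estimates above 0, 6 below and a median of -0.47, where 11.1% of all tested genes were called higher and 11.9% lower. Dusp2, a nuclear phosphatase first found in T cells, fell by 2.89 from 79.0 ± 14.6 to 11.2 ± 6.67 normalized counts (SD, n = 5). Dusp6, the phosphatase of cytoplasmic ERK, fell by 0.47 and Dusp7 by 0.53, but Dusp6 missed the threshold without M3 (-0.42, adjusted p = 0.0529) and Dusp7 without M2 (-0.33, 0.122), M3 (-0.57, 0.0676) or M5 (-0.58, 0.0518), all from edgeR. Dusp4 had -0.30 (adjusted p = 0.458, edgeR with Benjamini-Hochberg adjustment). Of 9 Sprouty, SPRED and ETV genes, 8 were tested, 0 were called higher and 5 lower, with a median of -0.41. Spry4 fell by 1.31, Spry1 by 1.14 and Spred3 by 0.98, while Spry2 had -0.22 (adjusted p = 0.35, edgeR with Benjamini-Hochberg adjustment).

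Genes of the kinases and factors upstream were counted in the same way. Of 22 MAP kinases, their activators and effector kinases, 1 was called higher and 2 lower, with a median of 0.00, where 11.1% of all tested genes were called higher and 11.9% lower. Mapk3 had -0.24 and was not called, although it was called lower without M1 (-0.31, adjusted p = 0.0391) and with total-count scaling (adjusted p = 0.0408, edgeR). The RSK genes, which code for kinases that ERK activates, split, with -0.41 for Rps6ka3, -0.78 for Rps6ka1 and 0.39 for Rps6ka2. Rps6ka2 was no longer called without the replicate block (adjusted p = 0.0565), M3 (0.0634) or M4 (0.0526), from edgeR. Of 12 SRF, ternary complex and CREB genes, 0 were called higher and 2 lower, with a median of -0.14. Elk3, a ternary complex factor, fell by 0.99. Mrtfb fell by 0.26, a call lost without M2 (adjusted p = 0.0512) or M3 (0.0824) in edgeR. Srf had -0.09, Elk1 0.13 and Crem -0.34, and of these Crem alone was called under any alternative, without M2 (adjusted p = 0.049, edgeR). SRF's actin-linked targets numbered 10, with 9 tested, 0 called higher and 5 lower. Their median was -0.31, with -0.44 for Actb, -0.31 for Actg1, -0.46 for Tpm1 and -0.30 for Flna. Actg1 was no longer called without M4 (adjusted p = 0.073, edgeR).

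Of 12 heat shock genes, 6 were called higher and 1 lower, with a median of 0.22, beside 11.1% and 11.9% of all tested genes. Hspa1a rose by 1.22, Hspe1 by 0.51 and Hspd1 by 0.45 on the log2 scale, and Hspa1b by 1.09, a call lost without M1 (adjusted p = 0.0735), M3 (0.0744), M4 (0.158) or M5 (0.101) in edgeR. Whether reads of Hspa1a and Hspa1b can be told apart was not examined. Of 10 housekeeping genes, 0 were called higher and 3 lower, with a median of -0.17. The log2 fold change was -0.35 for Gapdh, which was not called except without M1 (-0.56) or without the low-count filter (-0.35), -0.17 for Tbp, -0.29 for Ywhaz, -0.25 for Hprt and -0.89 for Pgk1. Hprt was no longer called without the replicate block (adjusted p = 0.0532, edgeR), M3 (0.0744), M4 (0.132) or M5 (0.059), nor Pgk1 without the block (0.401), with DESeq2 (0.0735), or without M3 (0.0894), M4 (0.0922) or M5 (0.0788).

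**Figure D4:**
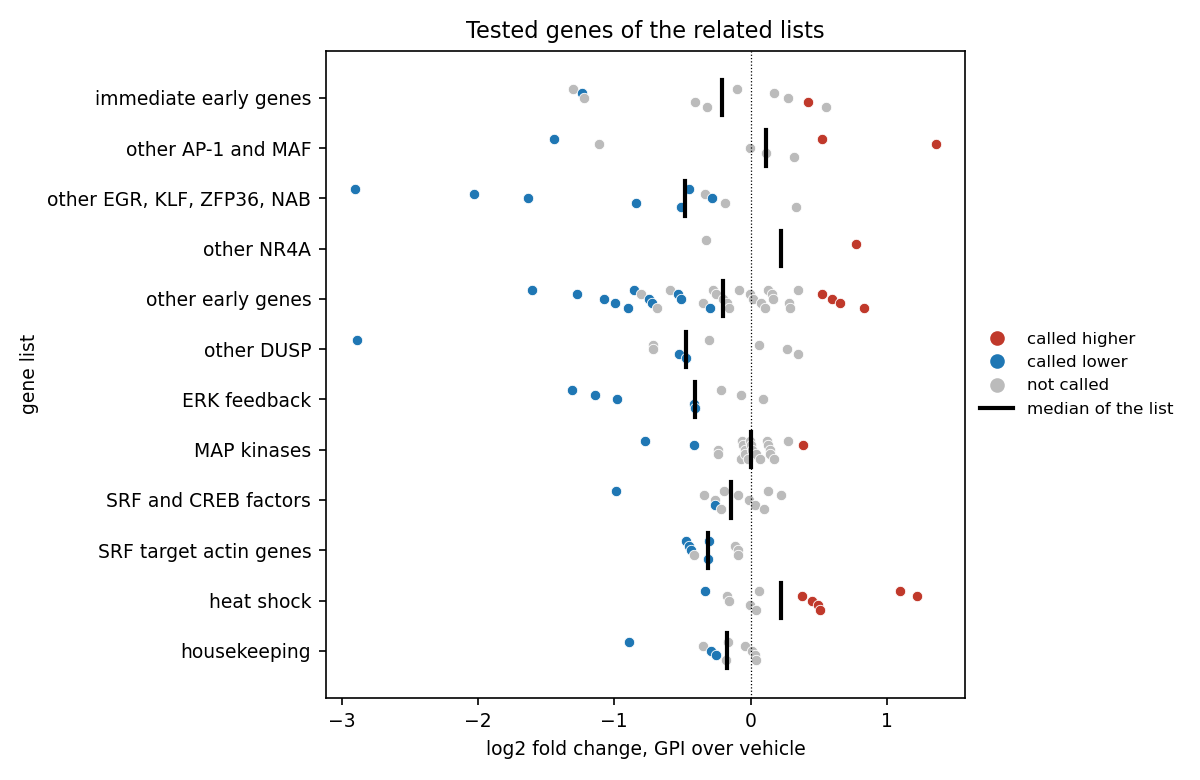
Log2 fold change of GPI over vehicle (horizontal axis) of every tested gene in 12 lists (rows), with red for genes called higher, blue for genes called lower, grey for the rest and a bar at the median of each list. The zinc finger list has its median at -0.48 and the list of immediate early genes at -0.21.

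Marker lists of 10 cell types follow, with their summed normalized counts in M1 to M5, beside 11.1% called higher and 11.9% called lower over all tested genes. All 12 endothelial markers were called lower, with sums of 10479.5, 10646.4, 10301.2, 11537.6 and 10647.1 with vehicle and 1333.0, 1574.4, 1072.6, 828.0 and 968.7 with GPI. Cdh5 was the most abundant, with a log2 fold change of -3.63, and Pecam1 had -4.16 and Kdr -2.44. Of 7 mural markers, 5 were called lower and 0 higher, with sums of 7803.2, 8636.9, 8391.7, 7948.8 and 7361.9 with vehicle and 1646.4, 1698.4, 1527.1, 1160.5 and 1697.6 with GPI. Abcc9 was the most abundant and fell by 3.93, with -4.32 for Rgs5, -1.44 for Cspg4 and -0.82 for Notch3. Of 12 macrophage and leukocyte markers, 11 were called lower and 0 higher, with sums of 1561.3, 1187.3, 1235.0, 1141.5 and 1241.1 with vehicle and 655.9, 550.5, 608.6, 308.3 and 342.1 with GPI. Lyz2 was the most abundant (-1.65), with -2.22 for Csf1r, -2.38 for Cx3cr1 and -0.26 for Adgre1, which was not called.

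Of 10 germ cell markers, 6 were tested, 4 were called lower and 0 higher. Their sums were 1709.7, 2881.8, 2089.3, 2759.2 and 1516.9 with vehicle and 918.9, 728.8, 764.5, 970.0 and 936.0 with GPI. The most abundant was Kit (-0.16, not called), which other cells of the gonad also transcribe, and Ddx4 had -2.72 and Dazl -4.62. Pou5f1, not tested, had 17.5 ± 10.02 normalized counts with vehicle and 0.61 ± 0.976 with GPI. Of 8 erythroid markers, 7 were called lower and 0 higher, with sums of 2054.0, 2777.9, 5222.6, 4894.8 and 4090.5 with vehicle and 1850.1, 1011.8, 945.2, 1065.8 and 2491.9 with GPI, Hbb-y being the most abundant (-0.98). Hba-a1 had -1.59, Hba-a2 -1.49 and Hbb-bt -3.84, and Hba-a2 was no longer called without M2 (adjusted p = 0.0549), M3 (0.0596) or M4 (0.0655), from edgeR. Hba-a1 and Hba-a2 are near-identical copies, whose reads can be hard to assign to 1 of them.

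Of 10 Sertoli cell markers, 8 were called higher and 0 lower, with sums of 5193.3, 8210.9, 6276.7, 7304.3 and 7723.8 with vehicle and 7201.1, 10399.1, 10628.9, 12919.8 and 10774.1 with GPI. Gata4 was the most abundant (0.53), with 0.59 for Sox9, 0.53 for Dmrt1 and 0.08 for Amh, which was not called. Dmrt1 lost its call without the replicate block (adjusted p = 0.0976), with total-count scaling (0.0613) and without M2 (0.102), M3 (0.114), M4 (0.186) or M5 (0.107), from edgeR. Of 8 fetal Leydig cell markers, 7 were tested and 7 called higher, with sums of 1935.6, 3591.8, 4949.0, 2681.5 and 6494.2 with vehicle and 11635.4, 12134.0, 18390.0, 21116.6 and 15551.0 with GPI. Hsd3b1 was the most abundant (1.75), with 2.90 for Cyp11a1, 3.90 for Cyp17a1 and 0.79 for Star. Of 10 interstitial progenitor markers, 1 was called higher and 3 lower, with sums of 18544.0, 20804.8, 21185.3, 18327.0 and 20188.8 with vehicle and 19678.2, 21168.6, 19286.6, 17946.7 and 21668.0 with GPI. Pdgfra was the most abundant (0.33), with -0.18 for Nr2f2 and -0.30 for Tcf21. Nr2f2 was called lower with total-count scaling (adjusted p = 0.0441), and Tcf21 was no longer called without M2 (0.0586), M3 (0.0942) or M4 (0.0743), from edgeR.

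Of 6 mesonephric markers, 2 were tested, 1 was called lower and 0 higher, with sums of 1719.6, 1164.6, 1371.3, 1130.6 and 850.2 with vehicle and 796.9, 993.9, 597.2, 576.5 and 798.7 with GPI. Emx2, which the gonad also transcribes, was the most abundant (-0.73), and Pax8 had -0.28. Of 6 markers of the coelomic epithelium, 5 were tested and 0 called in either direction by edgeR, with sums of 801.7, 607.4, 693.4, 454.2 and 475.4 with vehicle and 739.8, 611.3, 650.4, 556.6 and 637.4 with GPI. Upk3b was the most abundant (0.23), with -0.05 for Krt19 and -0.02 for Krt7. No marker of these lists was at 0 in all 10 libraries. The part of these cell types in the early gene results was not tested.

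**Figure D5:**
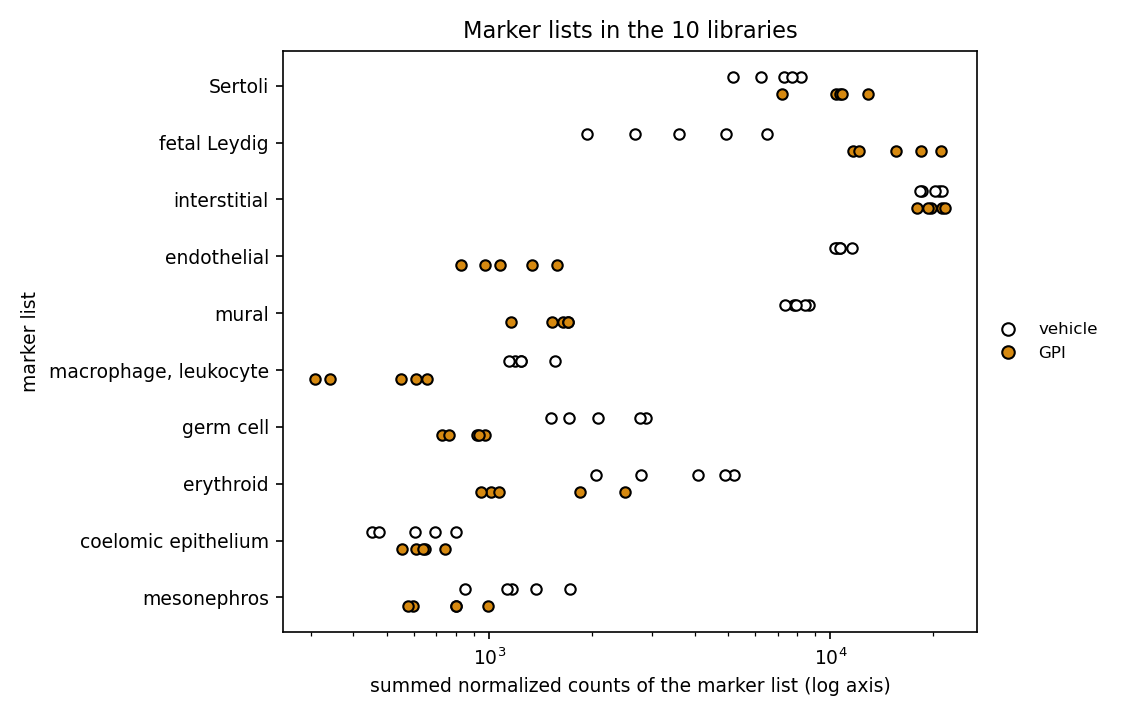
Summed normalized counts of 10 marker lists (horizontal log axis) in each library, with open points for the 5 vehicle gonads and filled points for the 5 GPI gonads. The endothelial sums are 10301.2 to 11537.6 in vehicle gonads against 828.0 to 1574.4 in GPI gonads, and the fetal Leydig sums 1935.6 to 6494.2 against 11635.4 to 21116.6.

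The genes whose profile over the 10 libraries lay nearest to the members' mean profile were found by root mean square distance between centred log2 values. They were Per1 (distance 0.099), a clock gene that is itself an early response gene, Rusc2 (0.129), Ccnd2 (0.129), Atf7 (0.134) and Plpp5 (0.134). Per1 had 143.6 ± 21.2 normalized counts with vehicle and 113.6 ± 24.3 with GPI (SD, n = 5), a log2 fold change of -0.35 that was not called (adjusted p = 0.159, edgeR with Benjamini-Hochberg adjustment). Rusc2 had -0.24 and Ccnd2, which codes for cyclin D2, -0.17, neither called, and Ccnd2 was called lower without M1 (-0.35, adjusted p = 0.00279, edgeR). Atf7, which codes for a factor that binds the cyclic AMP element, had -0.30 and Plpp5 -0.39, both called lower. Atf7 was no longer called without M2 (adjusted p = 0.059), M3 (0.0623) or M4 (0.0719), nor Plpp5 without the replicate block (0.0574), M2 (0.109), M3 (0.0537), M4 (0.108) or M5 (0.0962), from edgeR. The members nearest to their own mean profile were Egr1 (0.235) and Jun (0.236), and Junb was the farthest (0.767).

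The members are short genes, which the way they were named did not use. Their median span on the genome was 3559.5 bases against 22721 over tested genes, and their longest coding transcripts had a median of 3 exons against 9. Jun, Junb and Ier2 have 1 exon. Their median transcript length, 2759 bases, was closer to that of tested genes, 3256. No other entry of the count table overlaps any of the 10 members. Among the other genes named, Actg1, Pdgfra and Csf1r overlap a microRNA gene on the same strand, as do Srf and Pax2. Fosl1, Crem, Cdh5, Nr2f2, Abcc9 and also Pax2 overlap an entry on the opposite strand. Overlap was taken over the whole span of a gene, introns included. Strand was not used in counting, and whether these overlaps affected any counts was not tested.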

How the data were processed

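The deposited table holds raw counts that the authors made by aligning reads with STAR 2.5 to mm10 and assigning them to NCBI RefSeq Curated genes with featureCounts (Subread 1.5.0-p1), without regard to strand. All 10 columns were mapped to samples, with 0 left unmapped. Genes were filtered with filterByExpr (minimum count 10, minimum total 15), scaled by TMM and fitted in edgeR with mouse and treatment, at an FDR of 0.05. Log2 values used a prior count of 2. FPKM was computed here from the longest coding transcript in GENCODE M21.

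The 2 gonads of a mouse are paired by the labels. After removal of group means, library pairs correlated from -0.04 to 0.155 within a mouse (mean 0.06), against a mean of -0.015 between mice. Libraries were checked for duplicates, and no pair of a group was closer than 6.42 in chi-square per degree of freedom (highest 27.81). Reads were counted without molecular barcodes, so that PCR copies are not independent molecules.

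Alternatives were a fit without the mouse, DESeq2, limma-voom, DESeq2 size factors, total counts alone, each mouse left out, and 2 other filters (none, or 10 counts asked of all libraries). Members and lists were chosen with earlier results of these data known. Genes named are all members, the first 2 of each list and its 3 with the smallest p, the first 3 of each marker list and its most abundant gene, and the 5 nearest profiles; 1 gene under this rule is not reported here. Tests ran in R 4.3.3 with edgeR 4.0.16, DESeq2 1.42.0 and limma 3.58.1. Tables and figures were made in Python 3.11.15 with pandas 2.3.3, matplotlib 3.10.9 and numpy 2.4.6.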

Additional observations from a re-analysis of the deposited data

Results flagged for a closer look

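In each group of 5 libraries of the 99 genes covered by the naming rule, the gap between the highest or lowest library and its neighbour was compared with the group's range by Dixon's rule. It passed the critical value of 0.71 in 21 of 198 groups. Chance flags about 1 in 20 groups.

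The vehicle gonad of M2 stood above the other vehicle gonads in 6 genes, with normalized counts of 368.7 for Dusp1 (others 198.2 to 241.5), 247.0 for Jund (138.4 to 160.8), 408.1 for Ier3 (231.1 to 262.4), 371.1 for Dusp7 (175.2 to 203.2), 2641.9 for Mrtfb (2274.1 to 2371.8) and 794.7 for Mapk3 (566.9 to 626.5), and in the mural gene Notch3 with 565.6 (411.4 to 454.1).

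The GPI gonad of M1 stood above the other GPI gonads with 153.3 for Dusp1 (88.26 to 103.0), 79.46 for Maff (27.35 to 41.84), 482.4 for Klf10 (136.9 to 179.9), 235.0 for Ier3 (72.15 to 112.6), 7614.1 for Gapdh (2523.6 to 3378.3), 1627.3 for Pgk1 (241.5 to 435.4), 10347.2 for Ccnd2 (5062.7 to 6438.5) and 261.9 for Plpp5 (164.6 to 186.4).

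The vehicle gonad of M5 was lowest with 83.04 for Maff (108.6 to 118.4), 10458.2 for Zfp36l1 (11924.4 to 12478.2) and 790.8 for Emx2 (993.1 to 1060.8). The vehicle gonad of M3 had 2.233 for Fosl1, which was at 0 in the other vehicle gonads. The GPI gonad of M2 had 29.19 for the duct gene Pax2 (1.119 to 7.627) and 2.432 for Lhx1, which was at 0 in the other GPI gonads.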

How the results depend on the processing

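With the replicate block, 3198 genes were called, and 3108 without it, where 2 members were called as before. DESeq2 gave 3187, limma-voom 3287, DESeq2 size factors 3194, total counts alone 3210 (1238 higher and 1972 lower, against 1544 and 1654), no low-count filter 3472 and at least 10 counts in every library 2819. Genes called higher were 969 to 1430 with a mouse left out, lowest without M3 (969) and M4 (1024). The cause was not tested.

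Of the members, 2 were called. With total counts alone it was 1, with 0 higher, and without the low-count filter 2 were lower. With a mouse left out, 1 to 2 were called, 0 to 1 higher and 1 to 2 lower. Over 116 member results, 106 kept direction and call, 5 lost the call, 3 gained it and 2 changed sign. Over 1118 results of all named genes these were 1046, 50, 11 and 11.

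Signs changed only where no difference was called. With a mouse left out, log2 fold changes ran from -0.086 to 0.68 for Fosb, -0.024 to 0.45 for Ier2, -0.11 to 0.19 for Jund, -0.22 to 0.0467 for Srf, -0.12 to 0.29 for Amh, -0.18 to 0.0794 for Krt19 and -0.30 to 0.29 for Krt7, which had 0.0469 with limma-voom. Fosb, Junb and Egr2 gave no value where 10 counts were asked of every library, nor Fosb without M5.

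Each group had 5 gonads from 1 culture time and 1 dose, so that neither the course nor the dose of any difference can be read. Members with few counts, Fosb, Egr2, Junb, Fos, Ier2 and Nr4a1, have wide intervals. RNA came from whole gonads, and neither protein nor phosphorylation was analysed here.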
